A study of Mus musculus with 2 samples.

Results

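10 genes of the p53 pathway, taken by symbol from the 32285 genes counted, were followed: Trp53, Cdkn1a, Mdm2, Ccng1, Trp53inp1, Eda2r, Phlda3, Sesn2, Zmat3 and Bbc3. All 10 were found in the gene table and all 10 had UMIs (unique molecular identifiers, of which each standing for 1 captured transcript). Single cells came from mouse embryos at E14, from which head and viscera had been removed, and were sorted on the red reporter tdTomato (tdT). The mutant library, MKO/tdT, carried 2 floxed alleles of the splicing factor gene Srsf2, and the control library, Het/tdT, carried 1 floxed and 1 intact allele, so that the control is itself heterozygous after recombination. Both genotypes carried Myf5-Cre, which acts in cells with a history of Myf5 expression, together with the Cre-dependent tdT reporter. A cell whose lineage never expressed Myf5 is neither deleted nor, if the gate was clean, present. There was 1 library per genotype and the number of embryos behind each was not given, so no test between genotypes was possible. Intervals are exact 95% intervals that cover counting error only, and cells of a class vary more than that.

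Of the deposited barcodes, 12523 of 15268 in Het/tdT and 10345 of 12498 in MKO/tdT were kept, with medians of 10751 and 9480 UMIs a cell. The run summary named KO is attached to the sample titled as heterozygous and that named WT to the one titled as homozygous floxed, and the study's own displays also give both assignments. Barcodes of the run named KO were taken as MKO/tdT here, and under the opposite assignment every log2 ratio between the libraries below changes sign, while ratios within 1 library do not. Srsf2 stood at 219 CPM (UMIs per 1000000 UMIs of the same cells) in Het/tdT and at 153 CPM in MKO/tdT. Within muscle-like cells it stood at 252 and 175 CPM. Which bases the deletion removes was not given in the sources used here, so 3′ counts of Srsf2 are a limited check of the labels. The libraries shared 74 barcode sequences, 50 of them among kept cells, and in 8 of these 50 both cells fell in the same class.

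Cells were put in 11 classes by UMI limits on marker genes, and each class is called by its markers, such as muscle-like. The muscle-like class had 2329 cells in Het/tdT and 108 in MKO/tdT, and the mesenchymal-like class 3656 and 2413. Among genes not used to define a class, Myog was in 56.1% of the muscle-like cells and in 2.1% to 10.6% of every other class. Msc, another such gene, was in 51.5% of the muscle-like cells and in at most 2.9% of any other class. Some other such genes were less particular to 1 class. Dcn, a proteoglycan of connective tissue, was at 1018 CPM in mesenchymal-like cells and at 43.7 to 588 CPM elsewhere. Lum, another, was at 508 CPM there but at 953 CPM in osteoblast-like cells. The embryonic globin Hbb-y was found in only 9.3% of the erythroid-like cells, though at 6437 CPM against at most 48.3 CPM in any other class. RNA from outside the cell may also have been counted, and its amount was not estimated. Cartilage collagen Col2a1 was found in 67.4% to 84.6% of the cells of every class other than chondrocyte-like, where it was in 99.3%, at levels of 105 to 207 CPM against 9408 CPM. After thinning each cell to 2000 UMIs Cdkn1a was found in 38.1% of chondrocyte-like cells of Het/tdT and in 4.76% of erythroid-like cells (medians of 12520 and 10431 UMIs before thinning).

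The protein p53, encoded by Trp53, is a transcription factor that is kept scarce by its ubiquitin ligase Mdm2 and accumulates after DNA damage and other stress. It is mainly controlled at the level of the protein, so its transcript need not change when its targets do. Among its targets, Cdkn1a encodes the CDK inhibitor p21, which halts the cell cycle, while Mdm2 closes a negative feedback loop and Bbc3 encodes Puma, a protein that promotes cell death. In developing muscle, p21 is also known to accumulate as myoblasts leave the cell cycle and differentiate, a step that can run through MyoD without p53.

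All 10 are protein-coding genes, and their places are given on GRCm38. The listed places are Trp53 (ENSMUSG00000059552) on chromosome 11 at 69580359 to 69591873, Mdm2 (ENSMUSG00000020184) on chromosome 10 at 117688875 to 117710758, Ccng1 (ENSMUSG00000020326) on chromosome 11 at 40748552 to 40755311. They go on with Trp53inp1 (ENSMUSG00000028211) on chromosome 4 at 11156431 to 11174379, Eda2r (ENSMUSG00000034457) on chromosome X at 97333840 to 97377216, Phlda3 (ENSMUSG00000041801) on chromosome 1 at 135766119 to 135769136. The remaining ones are Sesn2 (ENSMUSG00000028893) on chromosome 4 at 132492032 to 132510501, Zmat3 (ENSMUSG00000027663) on chromosome 3 at 32334792 to 32366014, Bbc3 (ENSMUSG00000002083) on chromosome 7 at 16308393 to 16318205. Of these, Trp53, Trp53inp1, Phlda3 and Bbc3 lie on the plus strand, as does Cdkn1a (ENSMUSG00000023067), and the rest on the minus strand. UMIs were counted near the 3′ end of spliced transcripts, so no value speaks of single exons.

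A p53 response element is made of a pair of half-sites of 10 bases. In RefSeq promoter windows of GRCm38.p6 (250 bases before to 50 after a start), the p53 consensus was searched with the 4 core bases of each half-site exact and at most 2 other bases off, and since the consensus is its own reverse complement one strand was enough. Of the 10 genes, 8 have a window in the table (Trp53inp1 and Zmat3 do not), and 1 of the 8 held a match. It is Cdkn1a, whose upstream start on chromosome 17 has the letters below on the plus strand at chr17:29090928-29090947, beginning 51 bases before that start, with 1 base off the consensus. Capitals mark the core of each half-site.
Cdkn1a upstream start: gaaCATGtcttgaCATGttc
Of all 32851 windows, 0.158% held such a match, as did 0.189% of 27025 genes. The downstream start of Cdkn1a and the windows of the other 7 genes held none under this limit. The search allowed no spacer between the half-sites, so an element with a spacer would not have been found. The E-box letters CAGCTG, searched in the same windows, were found for Cdkn1a (in the window of the upstream start) and Mdm2, and in 18.3% of all genes. A match is a description of letters and not of binding.

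Cdkn1a, which lies on chromosome 17 (29090976 to 29100727, GRCm38), had more UMIs than any other of the 10 genes, 32347 in Het/tdT beside 33585 in MKO/tdT. Chondrocyte-like cells had the highest level in both libraries, 313 CPM (307 to 320) in Het/tdT, and MKO/tdT stood at 409 CPM (402 to 417). Erythroid-like cells had the lowest, 26.1 and 21.7 CPM. Between these ends the order differed between the libraries. In Het/tdT the chondrocyte-like cells were followed by muscle-like (245 CPM), osteoblast-like (244), immune-like (236), endothelial-like (186), epithelial-like (177), mesenchymal-like (151), pericyte-like (136), Schwann-like (75.3) and neuron-like cells (63.2). Of these neighbours, the intervals overlapped from muscle-like to osteoblast-like to immune-like, between endothelial-like and epithelial-like, between mesenchymal-like and pericyte-like and between Schwann-like and neuron-like cells. In MKO/tdT the order went on with epithelial-like (336 CPM), endothelial-like (288), muscle-like (266), osteoblast-like (240), mesenchymal-like (229), pericyte-like (215), immune-like (200.2), Schwann-like (143) and neuron-like cells (100.2). There the intervals of neighbours overlapped all the way from endothelial-like to immune-like cells and at no other pair. Chondrocyte-like cells gave 27.0% of the Cdkn1a UMIs of Het/tdT and 31.7% of those of MKO/tdT. Muscle-like cells gave 27.3% and 1.40%, beside 18.6% and 1.04% of the cells.

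**Figure D1:**
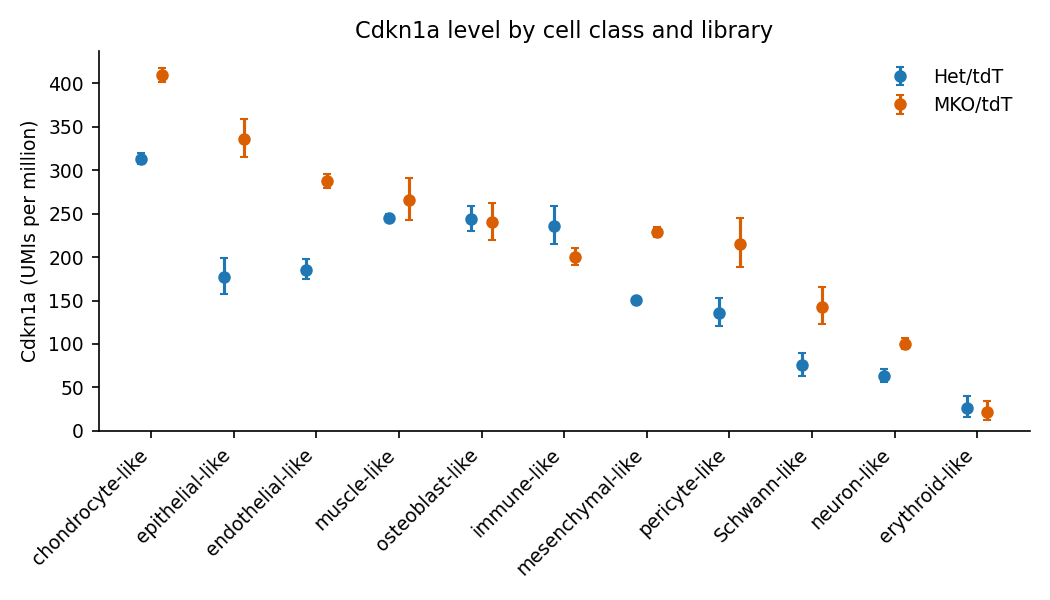
Cdkn1a level (CPM) in each of 11 cell classes, ordered by the level over both libraries. Points are single libraries (blue Het/tdT, orange MKO/tdT) and bars are exact 95% Poisson intervals. Chondrocyte-like cells are highest at 313 and 409 CPM, and the libraries overlap in muscle-like, osteoblast-like and erythroid-like cells.

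Each of the other genes had its own place. Mdm2 was highest in epithelial-like cells of both libraries, at 100.1 CPM in Het/tdT and 174 CPM in MKO/tdT, followed by endothelial-like cells. Bbc3 was highest in endothelial-like cells, at 70.6 and 84.9 CPM, while muscle-like cells stood at 16.98 and 22.6 CPM. Trp53 itself ranged from 48.8 CPM in neuron-like to 116 CPM in epithelial-like cells of Het/tdT. In MKO/tdT it ranged from 49.5 CPM in chondrocyte-like to 122 CPM in endothelial-like cells, with erythroid-like cells below both ranges. Chondrocyte-like and neuron-like cells had overlapping Trp53 intervals in each library. Zmat3, which encodes a zinc-finger RNA-binding protein, was highest in neuron-like cells, at 28.5 and 28.2 CPM. Ccng1, which encodes cyclin G1, a p53 target that feeds back on Mdm2, was highest in immune-like cells, at 28.7 and 30.6 CPM. Sesn2, a stress-induced inhibitor of mTORC1 signalling, was highest in chondrocyte-like cells, at 29.2 and 24.3 CPM. In Het/tdT the highest class overlapped the next by interval for Mdm2, Bbc3, Zmat3, Ccng1 and Sesn2, and in MKO/tdT for Sesn2. Over both libraries together none of these genes had such an overlap. Trp53inp1, a nuclear protein that promotes p53 activity and autophagy, was highest in Schwann-like cells, at 15.1 and 20.8 CPM, from 27 UMIs in each library, and its interval over both libraries overlapped that of endothelial-like cells. Phlda3, a repressor of Akt at the membrane, was highest in muscle-like cells of Het/tdT (51.1 CPM) and in pericyte-like cells of MKO/tdT (59.1 CPM), whose intervals overlapped. Eda2r, a receptor of the TNF receptor superfamily, had only 222 and 144 UMIs in all cells and was below 2 CPM in every class and library.

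Across the 22 profiles of 11 classes and 2 libraries, the levels of the 10 genes (log2 of CPM + 1) had pairwise Pearson correlations from 0.04 to 0.86, with a median of 0.57 over 45 pairs. These profiles share libraries and depth, and the erythroid-like class is low for nearly all of the genes. Without that class, a setting chosen after seeing the data, the median over the same 45 pairs was -0.07 and the range -0.71 to 0.76. The pair at -0.71 was Cdkn1a and Zmat3, and Cdkn1a with Mdm2 went from 0.80 to 0.26. Among the genes with profiles most like Cdkn1a were Rps24, Rpl22l1, Rps27a and Rps20, mostly ribosomal protein genes, and without the erythroid-like class they were Rpl34, Ddx21, Rps27a, Srp9 and Rps13 (r from 0.82 to 0.84 over 20 profiles).

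The comparison of genotypes asked how these genes stood after loss of Srsf2. Over all cells, Cdkn1a was higher in MKO/tdT, at 273 CPM against 213 CPM, a log2 ratio of 0.36 (0.33 to 0.38). Mdm2 stood at 67.3 CPM in Het/tdT and 81.9 CPM in MKO/tdT, with a log2 ratio of 0.28 (0.24 to 0.32). Bbc3 stood at 28.3 and 46.3 CPM, with a log2 ratio of 0.71 (0.65 to 0.77), and Trp53inp1 at 6.78 and 10.2 CPM, with a log2 ratio of 0.59 (0.47 to 0.71). The 2 last were the only ones of 10 past a log2 ratio of 0.58, the fold limit used here, beside 16.6% of all 17243 genes with at least 50 UMIs that were higher by as much and 6.66% that were lower. The median of the 10 ratios was 0.11, beside 0.04 over all genes. Trp53inp1, at 0.59, lay just past the limit, and the nearest short of it were Phlda3 at -0.37 and Cdkn1a at 0.36. Phlda3 stood at 36.1 and 28.0 CPM and Eda2r at 1.46 and 1.17 CPM, both lower in MKO/tdT, while the intervals of Ccng1, Sesn2 and Zmat3 spanned 0. Trp53 stood at 65.9 and 71.5 CPM, with a log2 ratio of 0.12 (0.08 to 0.16).

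The libraries differed in make-up, as endothelial-like cells were 365 in Het/tdT and 903 in MKO/tdT and muscle-like cells 2329 and 108. Class weights gave each class level the share of its cells in both libraries together. Cells that met no class limit or more than 1 were weighted as further groups. With these weights the log2 ratio of Bbc3 was 0.36, that of Trp53inp1 0.43 and that of Mdm2 0.18. The ratios over all cells sum UMIs instead, so deeper cells weigh more there. How much of each change is due to make-up was not tested. Phlda3, highest in the muscle-like cells that were few in MKO/tdT, came to 0.00071 and Trp53 to -0.0042. Cdkn1a alone among the 4 genes with the highest ratios over all cells came out higher, at 0.45. None of the 10 was past 0.58 in this weighting.

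Class by class, Cdkn1a was the gene whose interval most often lay off 0. It also had the most UMIs, 65932 over both libraries beside 20268 for Mdm2, the next. Intervals narrow with UMIs, so this order of the genes is not one of the size of their differences. The share of all genes with an interval off 0 is not given here. The Cdkn1a interval lay above 0 in 7 of 11 classes, below 0 in immune-like cells, and spanned 0 in muscle-like, osteoblast-like and erythroid-like cells. Schwann-like cells stood at 75.3 CPM in Het/tdT and 143 CPM in MKO/tdT, with a log2 ratio of 0.93 (0.60 to 1.26). Epithelial-like cells stood at 177 and 336 CPM, a log2 ratio of 0.92 (0.73 to 1.12). Next came neuron-like (0.67), pericyte-like (0.66), endothelial-like (0.63), mesenchymal-like (0.60) and chondrocyte-like cells (0.39), whose intervals were all above 0. Immune-like cells stood at 236 and 200 CPM, a log2 ratio of -0.24 (-0.39 to -0.09), and in that class 21.8% of all genes tested were lower past the limit. The median over all genes in immune-like cells was -0.19, and 45.7% of the genes tested there had a lower ratio than Cdkn1a. Cells that met no class limit stood at 117 and 207 CPM, a log2 ratio of 0.82 (0.72 to 0.91).

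**Figure D2:**
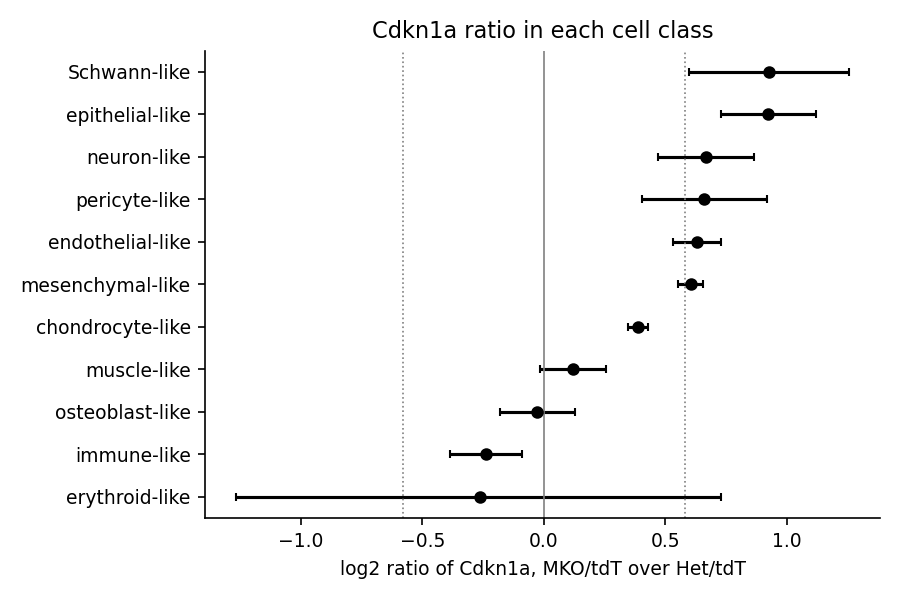
Log2 ratio of Cdkn1a, MKO/tdT over Het/tdT, in each of 11 cell classes. Points are ratios of summed UMIs, bars exact 95% intervals for counting error, and dotted lines a log2 ratio of 0.58 in either direction. Schwann-like and epithelial-like cells lie at 0.93 and 0.92, muscle-like cells at 0.12 and immune-like cells at -0.24.

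In mesenchymal-like cells, the class with the most cells in both libraries, Cdkn1a was at 151 CPM in Het/tdT and 229 CPM in MKO/tdT, with a log2 ratio of 0.60 (0.55 to 0.66). It was the only one of the 10 genes past the limit there, beside 5.46% of all 13642 genes that were higher by as much and 5.18% that were lower, and with every marker limit raised by 2 UMIs its ratio of 0.56 was no longer past it. Within mesenchymal-like cells that had a UMI of Prrx1, Pdgfra, Twist2, Osr1, Osr2 or Ebf2, taken 1 marker at a time, the ratio was 0.53 to 0.68. The share of cells with a Cdkn1a UMI, after thinning to 2000 UMIs, stood at 20.5% (19.2 to 21.8) in Het/tdT, while MKO/tdT had 27.5% (25.7 to 29.3), beside 52.7% and 59.0% at full depth. Cells with 20 or more Cdkn1a UMIs made up 0.14% and 0.91% of the class. Trp53inp1 (6.24 and 8.44 CPM), Sesn2 (11.4 and 13.4), Bbc3 (25.4 and 29.2) and Mdm2 (72.6 and 80.1) also had intervals above 0, with log2 ratios of 0.44, 0.24, 0.20 and 0.14. Trp53 stood at 62.5 and 59.8 CPM, and its interval spanned 0. The median of the 10 ratios was 0.11, beside -0.05 over all genes.

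A list of dissociation and stress genes was also higher in this class. With 1 library per genotype, an effect of cell preparation and one of genotype cannot be told apart. The sum of 13 such genes, among them Jun, Fos and Hsp90aa1, was 11852 CPM in Het/tdT and 15900 CPM in MKO/tdT, with 2 of the 13 higher past the limit (Ier3 and Dusp1), beside 5.46% of all genes. All 13 intervals lay above 0, and the median of the 13 log2 ratios was 0.46, beside -0.05 over all genes. Within the 5 ranges of this sum per cell, the ratio of Cdkn1a in mesenchymal-like cells was 0.37 (-0.14 to 0.88) below 2500 CPM, 0.49 from 2500 CPM, 0.33 from 5000 CPM, 0.54 from 10000 CPM and 0.68 from 20000 CPM. With the ranges weighted by their cells in both libraries it was 0.51. In endothelial-like cells the sum was 9333 CPM in Het/tdT and 9262 CPM in MKO/tdT, while Cdkn1a stood at 186 and 288 CPM. In all other classes with a Cdkn1a interval above 0 the sum was higher in MKO/tdT. It was 10912 and 13409 CPM in Schwann-like cells and 12792 and 17339 CPM in pericyte-like cells. The sum was also higher in osteoblast-like cells (9035 and 10017.5 CPM), whose Cdkn1a interval spanned 0. In immune-like cells, where Cdkn1a was lower (-0.24, beside a median of -0.19 over all genes), the sum was 4964 and 3076 CPM. The part of the stress genes in the Cdkn1a levels was not tested beyond these values.

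In neuron-like cells 4 of the 9 genes with at least 50 UMIs were higher past the limit, beside 3.04% of all genes tested in that class that were higher and 3.96% that were lower. They were Cdkn1a at 63.2 and 100.2 CPM, Bbc3 at 45.8 and 71.0 CPM, Sesn2 at 8.21 and 13.7 CPM and Trp53inp1 at 5.93 and 10.4 CPM, and all 4 intervals lay above 0. The stress sum was 4918 CPM in Het/tdT and 6692 CPM in MKO/tdT in these cells. In endothelial-like cells 3 of 9 were higher past the limit (Cdkn1a, Trp53inp1 and Sesn2), beside 3.03% (5.90% lower), and the interval of Sesn2 spanned 0. In epithelial-like cells 2 of 6 were, Cdkn1a and Mdm2 (100.1 and 174 CPM, 0.80, 0.54 to 1.07), beside 5.98% (8.77% lower). In Schwann-like cells Cdkn1a and Bbc3 were 2 of 6, beside 3.31% (7.87% lower), and in pericyte-like cells Cdkn1a and Phlda3 (37.2 and 59.1 CPM) were 2 of 5, beside 4.27% (8.67% lower). Trp53inp1 was the 1 of 9 higher in immune-like cells, beside 5.89%, and the 1 of 9 lower in osteoblast-like cells, beside 9.18% (2.68% higher), and both intervals spanned 0. In chondrocyte-like cells none of 10 was past the limit (3.19% higher and 3.62% lower over all genes). Cdkn1a (0.39), Bbc3 (0.20) and Mdm2 (0.12) were above 0 there, while Sesn2 (29.2 and 24.3 CPM, -0.26), Phlda3 (-0.23) and Ccng1 (-0.21) were below 0. In erythroid-like cells, where 2.93% of the genes tested were higher and 59.4% lower, none of the 10 had 50 UMIs.

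Over the 11 classes, Mdm2 had an interval above 0 in 6 and below 0 in none, Bbc3 above 0 in 5 and below 0 in 1, and Trp53inp1 above 0 in 3. These counts also depend on the UMIs of each gene, and the share over all genes is not given here. Trp53 had an interval above 0 in none and below 0 in 2, epithelial-like cells (116 and 88.5 CPM) and erythroid-like cells (18 and 5 UMIs). In epithelial-like cells, where Cdkn1a and Mdm2 were both higher past the limit, the transcript of p53 itself was thus lower. Zmat3 was above 0 in none and below 0 in Schwann-like cells, from 36 and 11 UMIs.

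**Figure D3:**
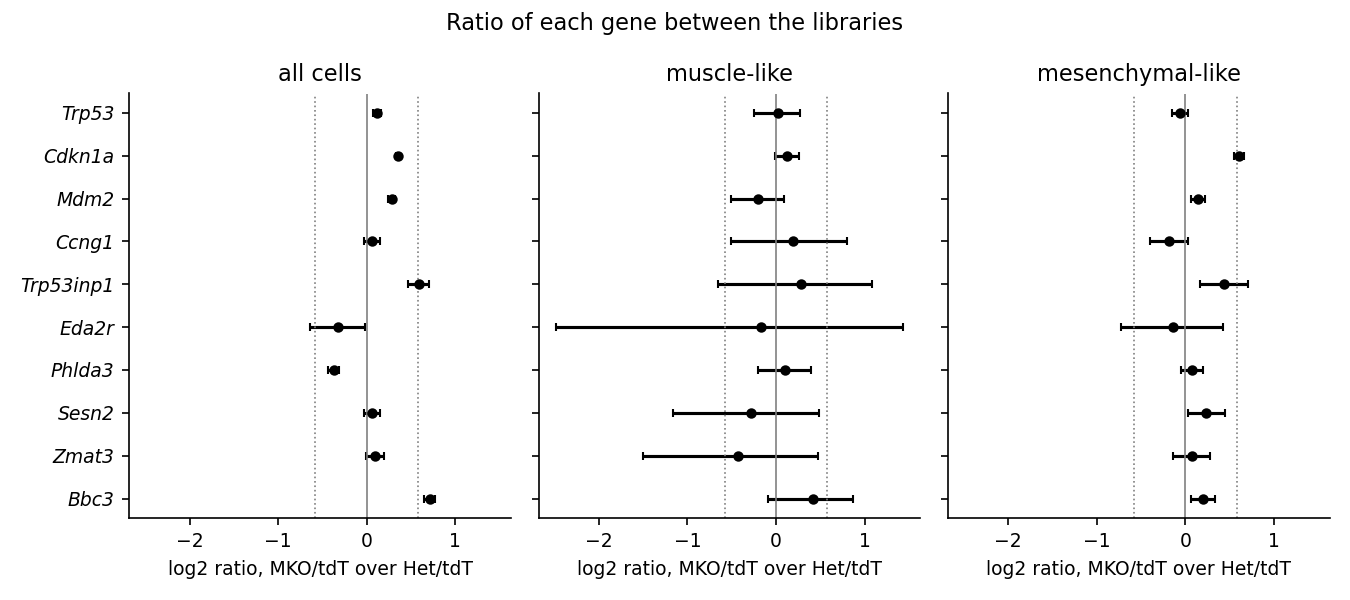
Log2 ratio, MKO/tdT over Het/tdT, of the 10 genes in all cells, muscle-like cells and mesenchymal-like cells. Points are ratios of summed UMIs, bars exact 95% intervals for counting error, and dotted lines a log2 ratio of 0.58 in either direction. In all cells Bbc3 (0.71) and Trp53inp1 (0.59) lie past the upper line, in muscle-like cells every interval spans 0, and in mesenchymal-like cells Cdkn1a (0.60) lies past the line.

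In muscle-like cells, the lineage in which Myf5-Cre is meant to act, none of the 10 genes was past the limit in either direction, beside 5.29% of all 11587 genes that were higher and 16.8% that were lower. The median of the 10 ratios was 0.06, beside -0.08 over all genes. It was -0.23 with muscle cells taken by a UMI of at least 2 of 6 muscle genes and -0.024 with cells kept that also met another class limit. Cdkn1a stood at 245 CPM in Het/tdT (8840 UMIs) against 266 CPM in MKO/tdT (471 UMIs), with a log2 ratio of 0.12 (-0.02 to 0.25). Its share of cells with a UMI after thinning was 27.1% (25.3 to 28.9) and 25% (17.2 to 34.3), with medians of 14567 and 15131.5 UMIs per cell before thinning. Trp53 stood at 73.0 and 74.0 CPM, Mdm2 at 62.4 and 54.3 CPM, Phlda3 at 51.1 and 54.8 CPM and Bbc3 at 16.98 and 22.6 CPM. Ccng1, Sesn2, Zmat3, Trp53inp1 and Eda2r rested on 3 to 22 UMIs in MKO/tdT, and the interval of every one of the 10 genes spanned 0. The interval of Bbc3 (-0.09 to 0.87) held ratios past the limit, as did those of Ccng1, Sesn2, Zmat3, Trp53inp1 and Eda2r. Those of Cdkn1a, Trp53, Mdm2 and Phlda3 did not. Bbc3 alone passed the limit with a mitochondrial limit of 5%, and also after thinning. Thinned Bbc3 stood at 13.8 CPM in Het/tdT and 37.0 CPM in MKO/tdT, with a UMI in only 7.41% (3.25 to 14.1) of 108 MKO/tdT cells. That is a random draw of few UMIs, and the level of MKO/tdT at full depth was 22.6 CPM.

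Muscle-like cells are a mixture of dividing precursors and differentiating cells, which can be ordered by Myog (myogenin), the factor that marks commitment to differentiation and was not among the class markers. With 0 Myog UMIs there were 1019 cells in Het/tdT and 50 in MKO/tdT, with 1 to 4 there were 423 and 10, and with 5 or more 887 and 48. Markers followed this order in Het/tdT, as Pax7, which marks precursors, went from 156 to 20.2 CPM between the outer groups and Mymk, which drives myoblast fusion, from 1.28 to 142 CPM. Pax7 was among the class markers, so the way cells entered the class can add to its difference, while Mymk was not. Mki67, a gene of dividing cells, had a UMI in 70.2% of the cells with no Myog and in 41.7% of those with 5 or more.

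Cdkn1a was far higher in cells with Myog. In Het/tdT its level was 50.4 CPM (47.0 to 54.1) with 0 Myog UMIs, 96.1 CPM (89.0 to 104) with 1 to 4 and 548 CPM (536 to 561) with 5 or more. In MKO/tdT it stood at 110 CPM (87.8 to 135), 60.0 CPM (31.0 to 105) and 479 CPM (432 to 531). Between the outer groups the level was 10.9-fold higher (10.1 to 11.7) in Het/tdT, and 4.37-fold higher (3.45 to 5.59) among MKO/tdT cells. A UMI of Cdkn1a was found in 37.8%, 55.1% and 91.1% of the cells of Het/tdT, and in 38.0%, 50% and 87.5% of those of MKO/tdT. Cells with 5 or more Myog UMIs held 83.4% of the Cdkn1a UMIs of muscle-like cells in Het/tdT and 79.0% in MKO/tdT. In finer steps in Het/tdT, Cdkn1a stood at 50.4 CPM with no Myog UMI, 65.0 with 1, 138 with 2 to 4, 240 with 5 to 9, 454 with 10 to 19 and 747 CPM with 20 or more. In MKO/tdT the 3 last steps stood at 103, 308 and 662 CPM, in 9, 11 and 28 cells.

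**Figure D4:**
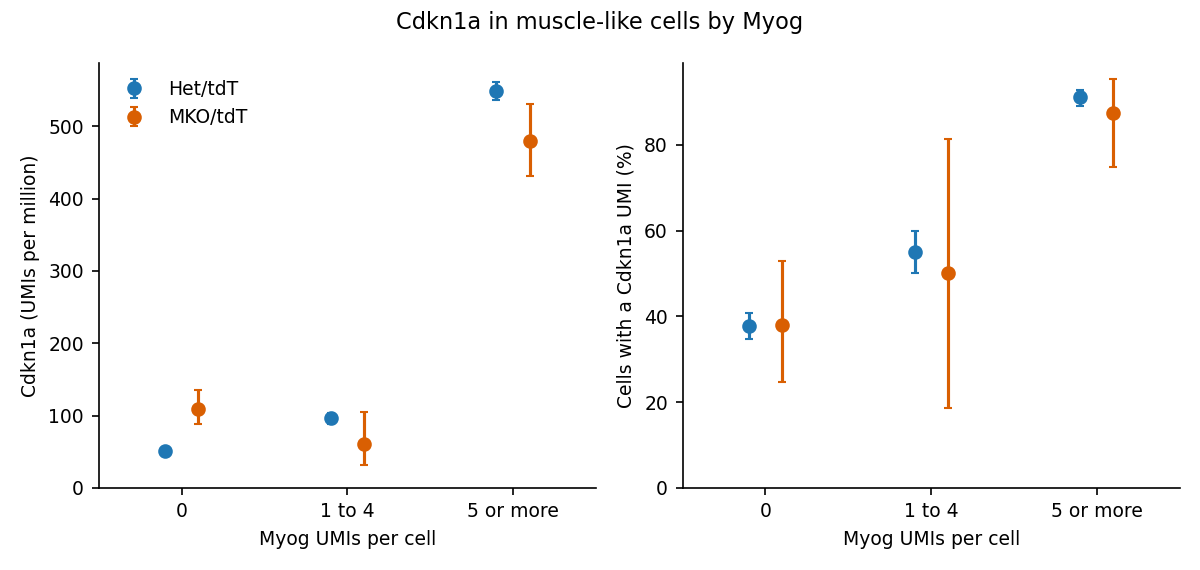
Cdkn1a in muscle-like cells with 0, 1 to 4 and 5 or more Myog UMIs, as level (left, CPM) and as percent of cells with a Cdkn1a UMI (right). Points are single libraries and bars exact 95% Poisson or binomial intervals. Het/tdT (blue) lies at 50.4, 96.1 and 548 CPM and MKO/tdT (orange) at 110, 60.0 and 479 CPM.

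Between the libraries, Cdkn1a in cells without Myog was higher in MKO/tdT, with a log2 ratio of 1.12 (0.78 to 1.44). The 50 cells of MKO/tdT had 87 Cdkn1a UMIs, however, and 1 cell held 32.2% and 5 cells 74.7% of them, while the share of cells with a UMI was the same in both libraries to within the intervals. Without the highest cell the level was 76.0 CPM and the log2 ratio 0.59, and with muscle cells taken instead by a UMI of at least 2 of 6 muscle genes the ratio was 0.35. In cells with 5 or more Myog UMIs Cdkn1a was lower in MKO/tdT, with a log2 ratio of -0.19 (-0.35 to -0.04), or -0.37 without the highest cell, which held 13.7% of the UMIs. In the middle group, with 10 cells in MKO/tdT, the interval spanned 0. Among the other genes, 3 also had intervals above 0 in cells without Myog. They were Trp53inp1 (1.90, 0.60 to 3.01, from 42 and 8 UMIs), Bbc3 (0.69, 0.05 to 1.27, from 317 and 26 UMIs) and Phlda3 (0.52, 0.14 to 0.87). The share of cells with a UMI was 3.43% and 12% for Trp53inp1, 25.3% and 38% for Bbc3 and 55.0% and 52% for Phlda3. These rest on the same 50 cells of MKO/tdT, and the share of all genes with an interval off 0 is not given here. With 5 or more Myog UMIs, Mdm2 was below 0 (-0.75, -1.29 to -0.25). Every remaining interval of the other genes in the Myog groups spanned 0, where a ratio could be formed.

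Split by Mki67 instead, a split chosen after seeing the data, muscle-like cells without a Mki67 UMI stood at 417 CPM in Het/tdT and 350 CPM in MKO/tdT (log2 ratio -0.25, -0.46 to -0.06). Cells with a Mki67 UMI, 1398 and 65 of them, stood at 160 and 223 CPM (0.48, 0.29 to 0.66). Without the MKO/tdT cell with the most Cdkn1a UMIs in each split the ratios were -0.60 (-0.84 to -0.38) and 0.34 (0.14 to 0.53). Over all cells the ratio was 0.17 without and 0.62 with a Mki67 UMI, and 33.6% of the cells of Het/tdT and 22.7% of those of MKO/tdT had one. In mesenchymal-like cells the corresponding ratios were 0.65 and 0.61, and a Mki67 UMI was found in 31.1% of the cells of Het/tdT and 22.3% of those of MKO/tdT.

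Few of the other genes followed Cdkn1a along Myog. In Het/tdT, Trp53inp1 stood at 2.70 CPM with 0 and 10.5 CPM with 5 or more Myog UMIs (log2 ratio 1.96, 1.45 to 2.49) and Ccng1 at 7.96 and 15.7 CPM (0.98, 0.65 to 1.31). With Cdkn1a (3.44) these 3 of 10 were higher past the limit, beside 12.0% of all 11104 genes. A further 5 were lower past it, beside 24.1% of all genes, and they were Zmat3 (10.0 and 4.76 CPM, -1.07), Sesn2 (11.4 and 6.40 CPM, -0.83), Phlda3 (60.7 and 39.6 CPM, -0.62), Bbc3 (20.3 and 13.4 CPM, -0.60) and Trp53 (84.7 and 56.6 CPM, -0.58). Mdm2, at 57.6 and 71.3 CPM, had a log2 ratio of 0.31 (0.18 to 0.44), and Eda2r, at 1.93 and 1.78 CPM, of -0.11 (-0.95 to 0.71). In Het/tdT the higher Cdkn1a along Myog thus went with more Trp53inp1 and Ccng1 and less Zmat3, Sesn2, Phlda3, Bbc3 and Trp53 transcript. Phlda3, Bbc3 and Trp53 lay just past the limit, and 22.4%, 22.8% and 24.0% of all genes had lower ratios than these 3. What lies behind these differences was not tested. In MKO/tdT, Trp53 (88.2 and 55.4 CPM), Phlda3 (87.0 and 28.4 CPM) and Bbc3 (32.8 and 12.9 CPM) were also lower with 5 or more Myog UMIs, with intervals below 0. In the same groups of MKO/tdT, Trp53inp1 stood at 10.1 and 6.44 CPM (8 and 5 UMIs) and Ccng1 at 12.6 and 12.9 CPM (10 and 10 UMIs). Mdm2 stood at 61.7 and 42.5 CPM (-0.54). The intervals of these 3 spanned 0. That of Ccng1 (-1.39 to 1.45) held its Het/tdT ratio, while those of Trp53inp1 (-2.60 to 1.15) and Mdm2 (-1.22 to 0.13) did not. Of other CDK inhibitors in Het/tdT, Cdkn1c (p57) was also higher with Myog, at 6262 and 12260 CPM (0.97), while Cdkn1b (p27) was lower, at 38.4 and 23.4 CPM (-0.71).

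**Figure D5:**
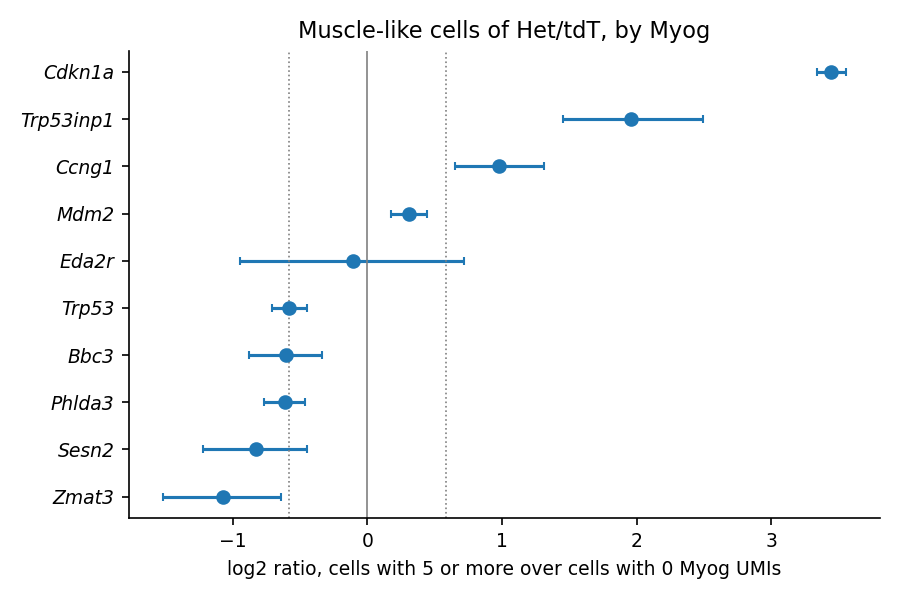
Log2 ratio of the 10 genes between muscle-like cells of Het/tdT with 5 or more and with 0 Myog UMIs. Points are ratios of summed UMIs, bars exact 95% intervals for counting error, and dotted lines a log2 ratio of 0.58 in either direction. Cdkn1a (3.44), Trp53inp1 (1.96) and Ccng1 (0.98) lie to the right, and Zmat3 (-1.07) and Sesn2 (-0.83) farthest to the left.

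The rest of the pathway was read from lists. Of the regulators and relatives of p53, 9 had at least 50 UMIs in muscle-like cells and 1 was higher past the limit, beside 5.29% of all genes. It was Trp63, a p53 family member of epithelia, from 61 and 7 UMIs with an interval that spanned 0. Their median log2 ratio was -0.36, beside -0.08 over all genes. Usp7, which deubiquitinates Mdm2 and p53, stood at 80.5 and 78.6 CPM, Mdm4, a partner of Mdm2 that restrains p53, at 55.9 and 43.5 CPM (-0.36, -0.71 to -0.03), and Trp53bp1, a DNA damage adaptor, at 31.9 and 24.9 CPM. In mesenchymal-like cells none of 9 was past the limit and Mdm4 stood at 40.0 and 34.3 CPM.

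Of 13 other arrest and repair targets with enough UMIs in muscle-like cells, none was higher and 1 was lower past the limit, beside 5.29% and 16.8% of all genes. It was Plk3, a stress kinase, from 200 and 6 UMIs with an interval that spanned 0. The median was 0.12. Btg2, an antiproliferative gene, stood at 72.4 and 71.2 CPM. Plk2, a kinase induced by p53 among others, stood at 34.0 and 39.0 CPM, and Sfn, the epithelial 14-3-3 sigma, had 37 and 6 UMIs. In mesenchymal-like cells 2 of 15 were higher and 2 lower, beside 5.46% and 5.18% of all genes. The higher ones were Plk2 at 56.9 and 106 CPM (0.89, 0.81 to 0.98) and Sfn at 1.92 and 4.58 CPM, and the lower ones Gtse1 and Tigar, from 137 and 49 and from 75 and 28 UMIs. Over all cells Sfn stood at 21.4 and 67.5 CPM and Plk2 at 80.7 and 194 CPM.

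Of 10 other cell death targets in muscle-like cells, 3 were higher and 1 was lower past the limit, beside 5.29% and 16.8% of all genes, with a median of 0.25. Pmaip1, which encodes the death-promoting protein Noxa, stood at 15.8 CPM in Het/tdT and 28.8 CPM in MKO/tdT (0.87, 0.43 to 1.28). Trp53i11 stood at 4.27 and 12.4 CPM (1.54, 0.83 to 2.19), from 22 UMIs in MKO/tdT, and Perp, a membrane protein of desmosomes, at 2.16 and 5.09 CPM from 9 UMIs. Ei24 was the lower one, at 27.0 and 15.8 CPM (-0.77, -1.37 to -0.23). Siva1 stood at 238 and 248 CPM and Bax, the pore-forming death effector, at 128 and 149 CPM (0.22, 0.04 to 0.40). In mesenchymal-like cells Pmaip1 stood at 20.0 and 17.4 CPM and Bax at 111 and 112 CPM, while Perp (3.43 and 7.84 CPM) and Tnfrsf10b (4.32 and 7.44 CPM), a death receptor, were the 2 of 10 past the limit, beside 5.46% of all genes. Over all cells Perp stood at 15.3 and 43.5 CPM. The part of RNA from outside the cell in the low levels of Perp and Sfn in these classes was not tested.

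The stress list was also higher in muscle-like cells, with a sum of 3754 CPM in Het/tdT against 4924 CPM in MKO/tdT, with 6 of 13 genes higher past the limit and none lower, beside 5.29% and 16.8% of all genes. Its median log2 ratio was 0.39, beside -0.08 over all genes. The heat shock genes Hspa1a (35.2 and 211 CPM, 2.59) and Hspa1b (21.4 and 85.9 CPM, 2.002) had the highest ratios, followed by Jun (595 and 1100 CPM), Dnajb1 (82.1 and 134 CPM), Fos (266 and 423 CPM) and Atf3 (127 and 197 CPM), while Hsp90aa1 stood at 1801 and 1884 CPM. Egr1 was lower (337 and 296 CPM, -0.19, -0.32 to -0.06). Within ranges of this sum per cell, the Cdkn1a ratio in muscle-like cells was -0.18 (-0.44 to 0.06) below 2500 CPM. It was 0.79 (0.58 to 0.98) from 2500 CPM, 0.30 (-0.02 to 0.62) from 5000 CPM and -0.49 (-1.33 to 0.25) from 10000 CPM. These ranges held 24, 45, 29 and 10 cells of MKO/tdT. The part of the stress genes in the values of the p53 targets was not tested beyond these values.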

How the data were processed

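Sorted tdT-positive cells of 1 Het/tdT and 1 MKO/tdT library had been sequenced with 10x Genomics 3′ chemistry. The deposited values are counts of UMIs for 32285 genes and 27766 barcodes, which the authors made with Cell Ranger (5.0.0 per the file headers, while the submitters' processing notes also list 3.1.0) on mm10 and aggregated after down-sampling reads. The deposited counts sum to 156093779 UMIs (Het/tdT) and 128116615 UMIs (MKO/tdT). Seurat filters, MAST tests and clusters of the study were not used here.

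Python 3.11.15, NumPy 2.4.6, SciPy 1.17.1 and pandas 2.3.3 were used. The quality filter removed cells more than 2 SD from their library's mean in log10 UMIs or log10 genes, and those above 10% mitochondrial UMIs. A cell that met the marker limit of 1 class took that class, a cell that met more than 1 was set aside as a possible doublet (525 Het/tdT cells, 649 MKO/tdT cells) without running a doublet caller, and the mesenchymal-like class was given only to cells that met no other limit. UMIs were summed per class and library and scaled to CPM. Intervals of ratios come from the exact binomial division of UMIs between libraries, and those of shares are Clopper-Pearson. Cells are not replicates, so no p-value is given. A log2 ratio past 0.58 with at least 50 UMIs over both libraries counted as a call of size.

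The 10 genes and the lists were chosen with earlier results of these data known. Genes named are the 10, of each list the 3 with the most UMIs and every gene past 0.58 in muscle-like cells, and the 5 most like Cdkn1a, of which 1 is not reported here. Other genes named in mesenchymal-like cells or along Myog, and Egr1 in muscle-like cells, were chosen after their values were seen. Gene identifiers were matched to GENCODE M21 (99.8%). Sesn2 overlaps Gm12981 on its own strand, so UMIs shared by both are uncertain, and Cdkn1a overlaps AC167363.2 on the other strand. A search of 2500 bases around each start was planned and not run, and promoter windows took its place. On simulated Poisson counts with known ratios, 95.4% of intervals over 17243 genes in all cells held the true ratio. In muscle-like cells 96.4% over 11540 genes did, and in mesenchymal-like cells 95.1% over 13642. Such counts hold counting error only, for which the intervals are made, so this coverage says nothing of variation between cells. In the muscle-like simulation, 12.6% of the unchanged genes were past 0.58 by counting error.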

Additional observations from a re-analysis of the deposited data

Results flagged for a closer look

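For 5 of the 10 genes the interval of the log2 ratio, MKO/tdT over Het/tdT, lay above 0 in some classes and below 0 in others. The share of all genes with such a pattern is not given here, so the count cannot be read as particular to these genes. With 1 library per genotype, the difference between classes was not tested. Cdkn1a was highest in Schwann-like cells, at 0.93, and below 0 in immune-like cells, at -0.24. The median over all genes in immune-like cells was -0.19, so Cdkn1a lay near the middle of all genes there. Ccng1 was at 1.10 in pericyte-like cells, from 16 and 17 UMIs, and at -0.21 in chondrocyte-like cells. Phlda3 was at 0.67 in pericyte-like and at -0.23 in chondrocyte-like cells. Sesn2 was at 0.74 in neuron-like and at -0.26 in chondrocyte-like cells. Bbc3 was at 0.74 in Schwann-like cells and at -1.70 in erythroid-like cells, the latter from 15 and 5 UMIs.

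Within muscle-like cells the Cdkn1a ratio was 1.12 with 0 Myog UMIs and -0.19 with 5 or more. It was -0.25 without and 0.48 with a Mki67 UMI. These differences were not tested either.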

How the results depend on the processing

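No paired analysis was possible because each genotype has 1 library, and leaving out a library was not run for the same reason. Intervals cover counting error and not differences between embryos. Few cells limit the muscle-like class of MKO/tdT (108 cells), as they do its pericyte-like (84) and erythroid-like (66) classes.

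The Cdkn1a ratio over all cells (0.36) was 0.42 with a mitochondrial limit of 5%, 0.33 without haemoglobin, mitochondrial and ribosomal protein genes in the denominator, 0.45 with class weights, 0.30 as a mean over cells and also 0.30 with Mki67 weights. In muscle-like cells (0.12) it was -0.12 after thinning and -0.041 with Myog weights. In mesenchymal-like cells (0.60) it was 0.54 as a mean over cells and 0.51 with stress weights. The Mki67, stress and highest-cell settings were chosen after seeing the data.

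By Myog, thinning gave -0.43 between the libraries at 5 or more UMIs. Cells with 2 of 6 muscle genes gave 3.01 and 2.57 between the outer groups of Het/tdT and MKO/tdT, and 0.35 and 0.78 between the libraries at 0 and at 1 to 4 UMIs. Keeping cells that met another limit gave 3.05 in Het/tdT, and 0.72 and 0.20 at 0 and at 1 to 4. Without the highest MKO/tdT cell, 0.59 and -0.37 were found at 0 and at 5 or more.

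Over all cells, 2 genes were higher past the limit, and 1 was with no filter or with the smaller denominator, and 0 were at a log2 limit of 1, while 3 were after thinning (Trp53inp1, Eda2r and Bbc3). Bbc3 was the 1 in muscle-like cells at 5% mitochondrial UMIs and after thinning, the latter with a UMI in only 7.41% of 108 MKO/tdT cells. In mesenchymal-like cells the count of 1 became 2 after thinning, 0 with raised marker limits and 0 at a log2 limit of 1. Among genes whose interval lay off 0, signs turned over all cells for Eda2r after thinning (0.65), and with class weights for Trp53 (-0.0042), Eda2r (0.041) and Phlda3 (0.00071). Of those whose interval spanned 0, Ccng1 was below 0 in 3 of 7 alternatives (lowest -0.10) and Zmat3 in 1 (-0.0022). The median of the 10 ratios in muscle-like cells (0.06) turned to -0.23 with 2 of 6 muscle genes and to -0.024 with cells that met another limit, and was 0.38 after thinning. The cause of these changes was not tested.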
